A study of Mus musculus with 32 samples.

Results

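Insig2 was followed through its 3 probes on Illumina mouse bead arrays, on which liver RNA is labelled and each probe's brightness is read. The probes were every one whose gene symbol in the platform annotation is Insig2, 3 of 25697 probes with intensities. Insig2 is 1 of 8853 genes with a probe that passed the filter on dim signals, which kept 12844 probes. All 3 Insig2 probes passed it, and all 3 were in the authors' own normalized table. The gene was chosen because its values were already known to differ between mice with and without ezetimibe, so those differences are given below as a description without a test.

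The livers came from 32 female ApoE3Leiden mice, 1 liver per array and 8 per group. Every mouse ate a high-cholesterol diet. The groups were the diet with rosuvastatin and ezetimibe (HC+RSV+EZE), the diet with ezetimibe (HC+EZE), the diet with rosuvastatin (HC+RSV) and the diet alone (HC). Dose, time on diet and age are not given in the sources used here. ApoE3Leiden mice carry a human APOE variant as a transgene, and their plasma lipids respond to dietary cholesterol and to lipid-lowering drugs. Rosuvastatin is a statin, which blocks cholesterol synthesis, and ezetimibe blocks the uptake of cholesterol in the intestine. RNA was from whole liver, so fewer cells of a type and less RNA per cell cannot be told apart.

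Insig2 encodes a protein of the endoplasmic reticulum membrane. When sterols are plentiful, it and the related Insig1 hold the escort protein Scap and its cargo, the SREBP transcription factors, in that membrane, so that the genes of cholesterol synthesis and uptake stay low. Insig1 is itself an SREBP target, whereas Insig2 in liver is made in large part from a liver-enriched transcript that falls with insulin and is raised in fasting. In mouse liver, Insig2 has also been described as a rhythmic gene under the clock repressor Nr1d1 and as a target of the bile acid receptor Nr1h4.

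The annotation places Insig2 on mouse chromosome 1 with 8 annotated transcripts, 5 of them curated. It assigns ILMN_1216822 and ILMN_1234858 to the same RefSeq transcript and ILMN_2690256 to another. ILMN_1216822 is called the bright probe below, ILMN_2690256 the middle probe and ILMN_1234858 the dim probe, after their signals. Brightness depends on the probe as well as on the RNA, so signals of different probes are not compared as amounts.

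RefSeq lists 3 starts for the gene, and which of them the probes report is not given by the annotation. Their promoters are shown because the gene's transcripts differ in start. Each runs from 250 bases before to 50 bases after the start, on the minus strand of GRCm38.p6, 5′ to 3′. Capitals mark the motif GGGTCA or its complement TGACCC.
Insig2 start 1, chr1:121332540-121332839: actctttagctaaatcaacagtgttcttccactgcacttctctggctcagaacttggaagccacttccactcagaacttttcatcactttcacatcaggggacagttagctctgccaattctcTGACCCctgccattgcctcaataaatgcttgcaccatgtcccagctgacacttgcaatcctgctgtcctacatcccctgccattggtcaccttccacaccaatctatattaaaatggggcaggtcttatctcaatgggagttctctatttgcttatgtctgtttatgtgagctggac
Insig2 start 2, chr1:121327975-121328274: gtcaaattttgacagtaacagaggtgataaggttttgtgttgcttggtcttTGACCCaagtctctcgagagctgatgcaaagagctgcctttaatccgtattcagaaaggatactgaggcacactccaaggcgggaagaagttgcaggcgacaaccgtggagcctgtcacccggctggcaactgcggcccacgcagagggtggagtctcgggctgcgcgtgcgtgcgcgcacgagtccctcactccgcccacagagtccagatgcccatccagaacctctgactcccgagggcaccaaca
Insig2 start 3, chr1:121327629-121327928: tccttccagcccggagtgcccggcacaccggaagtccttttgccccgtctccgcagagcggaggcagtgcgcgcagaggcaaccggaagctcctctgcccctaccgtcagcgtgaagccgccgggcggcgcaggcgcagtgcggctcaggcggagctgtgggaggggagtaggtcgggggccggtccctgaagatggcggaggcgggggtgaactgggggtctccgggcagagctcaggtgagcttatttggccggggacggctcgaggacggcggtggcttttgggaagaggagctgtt
Start 3 was the richest in G and C, at 69.3%, against 57.0% for start 2 and 46.0% for start 1. Start 1 held 1 match to GGGTCA, at position -127 from the start, and start 2 held 1 at -199. The same motif on either strand stood in 13.7% of 32851 mouse promoters of this length. AGGTCA, which 16.3% of them held, and CACGTG, which 7.15% held, did not occur in the 3 windows on either strand. A match is a run of letters, not a binding site.

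Mean intensity per array ran between 126.1 and 279.9, and between 10724 and 13444 probes were detected. The group means of the arrays' mean intensity were 171.4 in HC+RSV+EZE, 185.8 in HC+EZE, 199.2 in HC+RSV and 200.7 in HC, with no mean outside another group's range. Hepatocyte markers Ttr, Apoa1, Alb and Cps1 were detected on all 32 arrays and the intestinal markers Vil1 and Fabp2 had no kept probe. The summed level of the 5 hepatocyte markers had medians of 57664 in HC+RSV+EZE, 55727 in HC+EZE, 60107 in HC+RSV and 57724 in HC. The 3 macrophage markers kept of 5 had summed medians of 2039, 2779, 2280 and 2818 in the same order, with overlapping ranges in all groups. The part of cell makeup in the values below was not tested. The arrays lay on 6 chips, each holding arrays with and without ezetimibe. By contrast, the position of the array on its chip went with ezetimibe. HC+RSV+EZE lay at positions G and H, HC+EZE at F and G, HC+RSV at B and C, and HC at A and B. Array position and ezetimibe therefore cannot be told apart in any value below.

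The 3 Insig2 probes were lower in the ezetimibe groups, about 2-fold for the bright and the middle probe and over 3-fold for the dim probe, and rosuvastatin moved none of them past the test. The bright probe had intensities between 451.5 and 965.4 in HC+RSV+EZE, with a median of 704.5, and between 494.8 and 1270 in HC+EZE, with a median of 840.55. In HC+RSV its range was 937.3 to 3009.2 with a median of 1459.55, and in HC it was 1145.4 to 2747.6 with a median of 1714.95. The ranges of HC+EZE and HC overlapped before normalization, whereas that of HC+RSV+EZE lay wholly below HC. After background correction and quantile normalization the bright probe averaged 9.66 ± 0.23 log2 units in HC+RSV+EZE, 9.74 ± 0.24 in HC+EZE, 10.48 ± 0.59 in HC+RSV and 10.67 ± 0.25 in HC (SD, n = 8 each). All 8 HC+EZE arrays and all 8 HC+RSV+EZE arrays lay below the lowest HC array. Of the kept probes, 0.0311% had every HC+EZE array below every HC array and 0.0467% every HC+RSV+EZE array below them, and the gene was chosen on that contrast. Against HC+RSV, 4 of 8 HC+RSV+EZE arrays lay below the lowest array in the bright probe, and 3 of 8 in both other probes. The share of kept probes with such partial counts is not given here. In 0.0156% of kept probes every HC+RSV+EZE array lay below every HC+RSV array, which held for no Insig2 probe. The authors' normalized log2 values of the bright probe averaged 9.64 in HC+RSV+EZE, 9.73 in HC+EZE, 10.48 in HC+RSV and 10.67 in HC.

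**Figure D1:**
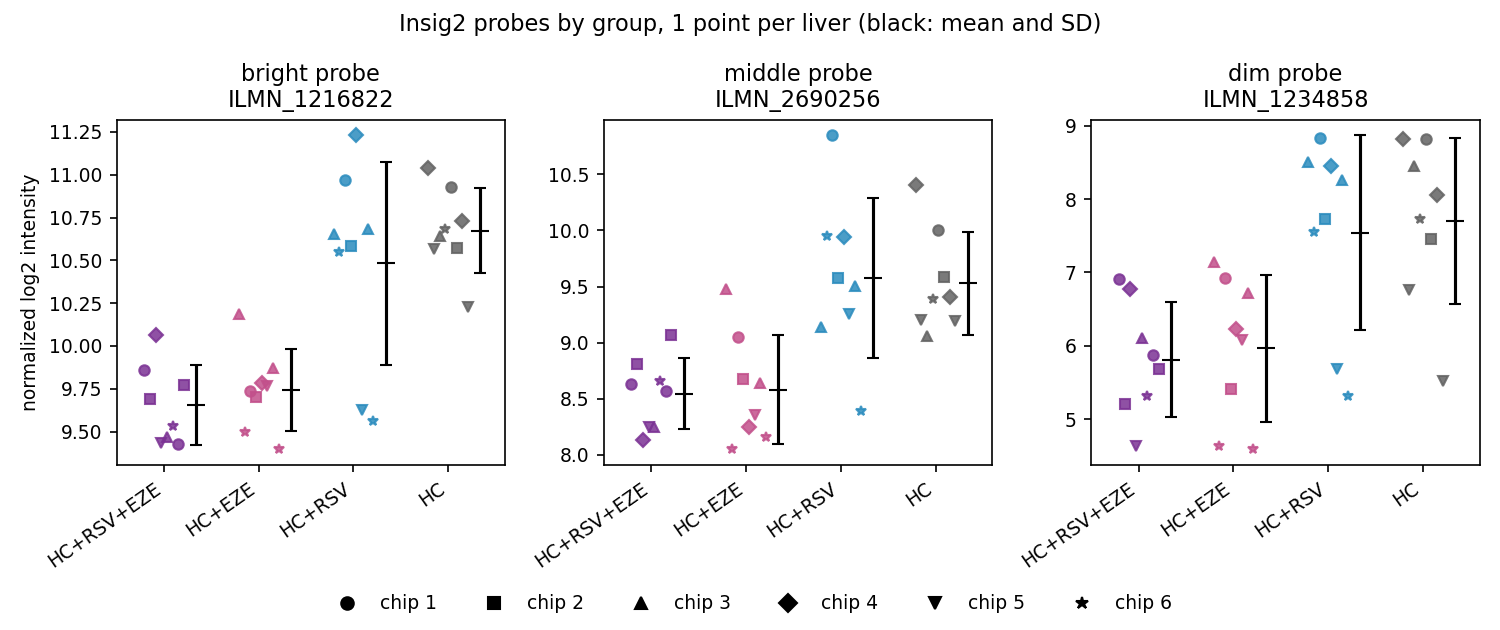
Normalized log2 intensity of each Insig2 probe (vertical axis, one panel per probe) in the 4 diet groups (horizontal axis), with 1 point per liver, the point's shape for its chip, and bars for mean and SD over 8 livers. The 16 livers with ezetimibe lie below the HC livers in the bright probe, and 2 HC+RSV livers, on chips 5 and 6, lie among the ezetimibe livers.

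The middle probe, of another transcript, was likewise lower with ezetimibe, with more overlap between groups. Its intensities ran between 167 and 531.5 in HC+RSV+EZE with a median of 294.85, and between 204.9 and 750.3 in HC+EZE with a median of 351.5. In HC+RSV they ran between 421.1 and 1220.7 with a median of 846.05, and in HC between 545.9 and 1797.1 with a median of 709.95. In this probe 7 of 8 HC+EZE arrays and 7 of 8 HC+RSV+EZE arrays were below the lowest HC array after normalization. The share of all kept probes with such counts is not given here, and the gene was chosen on this contrast. The order of HC+RSV and HC medians was the reverse of the bright probe's. Normalized means were 8.55 ± 0.32 in HC+RSV+EZE, 8.58 ± 0.49 in HC+EZE, 9.58 ± 0.72 in HC+RSV and 9.53 ± 0.46 in HC (SD, n = 8 each). The means of the pairs of groups that share the presence or absence of ezetimibe were closer to each other than their SD.

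On the log2 scale the dim probe had the widest range of the 3. It was detected on 7 of 8 HC+RSV+EZE arrays, 6 of 8 HC+EZE arrays and all 8 in both HC+RSV and HC. Its intensities ran between 11.4 and 69.4 in HC+RSV+EZE with a median of 35.55, and between 6.5 and 139.6 in HC+EZE with a median of 67.75. In HC+RSV they ran between 33.6 and 416.8 with a median of 241.35, and in HC between 41.5 and 674.7 with a median of 265.75. In these non-normalized intensities the median of HC+RSV+EZE was 7.48-fold below that of HC, while single livers overlapped. With each intensity divided by its array's mean intensity it was 6.22-fold below. In this probe 3 of 8 arrays of each ezetimibe group lay below the lowest HC array after normalization, again without a share over all kept probes. Its normalized means were 5.81 ± 0.78 in HC+RSV+EZE, 5.96 ± 0.996 in HC+EZE, 7.54 ± 1.33 in HC+RSV and 7.70 ± 1.13 in HC (SD, n = 8 each). In the authors' values, which go lower for dim spots, the means were 5.18 in HC+RSV+EZE, 5.28 in HC+EZE, 7.32 in HC+RSV and 7.53 in HC.

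The size of the difference was similar in the bright and the middle probe. In the model of the 4 groups, the bright probe differed by -0.93 ± 0.18 log2 units between HC+EZE and HC (SE), 1.91-fold lower. It differed by -1.02 ± 0.18 between HC+RSV+EZE and HC, 2.03-fold lower, and by -0.83 ± 0.18 between HC+RSV+EZE and HC+RSV, 1.77-fold lower. Removal of 1 liver at a time left these 3 differences between -1.08 and -0.72. For the middle probe the same 3 differences were -0.95, -0.98 and -1.03, each ± 0.24, or 1.93-fold, 1.98-fold and 2.04-fold lower. These comparisons share arrays, namely those of HC or of HC+RSV+EZE.

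For the dim probe the differences were -1.74 in HC+EZE against HC, -1.89 in HC+RSV+EZE against HC and -1.73 in HC+RSV+EZE against HC+RSV, each ± 0.49, or 3.33-fold, 3.70-fold and 3.32-fold lower. It had the most negative difference of all 12844 kept probes in each of the 3 comparisons, the contrasts on which the gene was chosen. The rank is by size of difference alone, and the dim probe's residual SD was larger than that of 99.6% of kept probes. The bright probe ranked 9, 7 and 12 and the middle probe 7, 9 and 3 from the lowest in the same order. The size for the dim probe depended on how low signals were treated, since its HC+EZE difference from HC was -2.25 in the authors' values and -1.31 with a larger offset of 50 added before the logarithm.

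**Figure D2:**
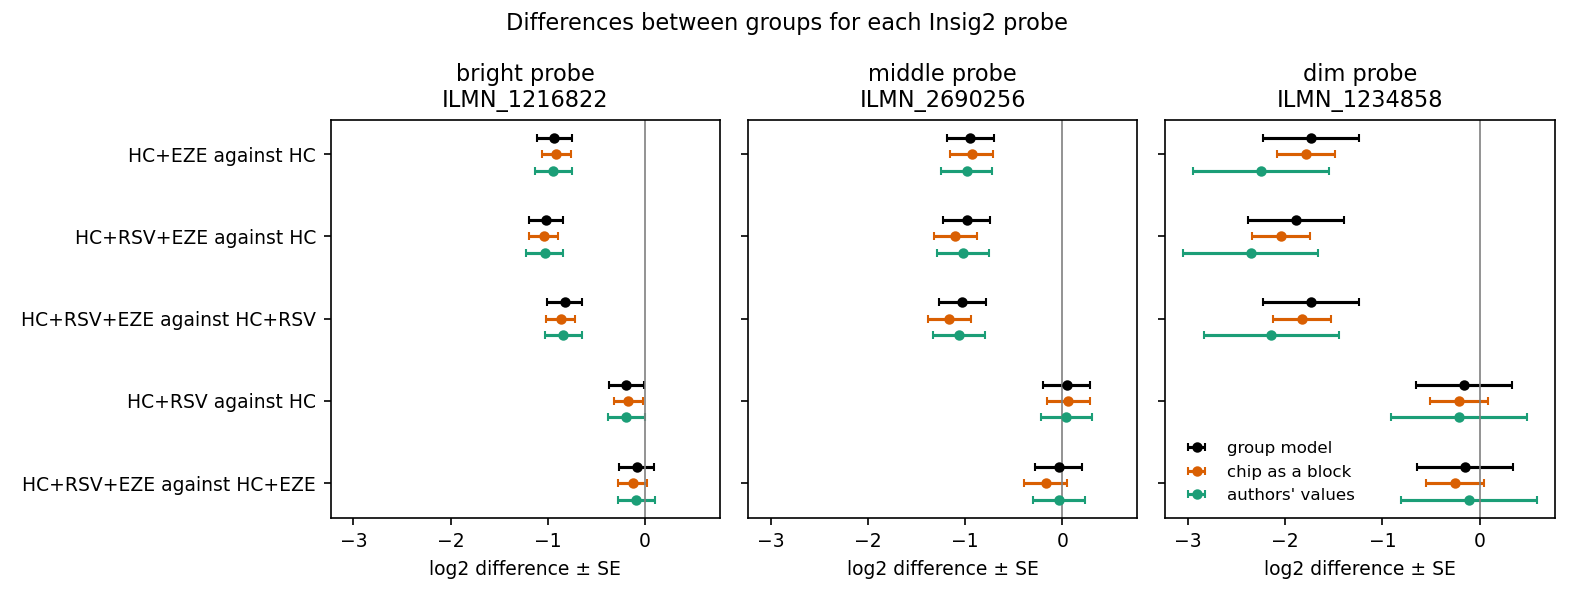
Log2 difference (horizontal axis, first group minus second, points with SE bars) of each Insig2 probe in 5 comparisons of diet groups, in the group model, with chip as a block and in the authors' values. The 3 comparisons that differ in ezetimibe lie left of 0 for every probe, near -1 for the bright and middle probes and further left for the dim probe, and the 2 that differ in rosuvastatin lie within 1.5 SE of 0.

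Rosuvastatin was tested on both backgrounds, with limma and Benjamini-Hochberg adjustment over 12844 probes. HC+RSV differed from HC by -0.19 ± 0.18 in the bright probe (limma adjusted p = 0.9998 for this and the next 2, 95% confidence interval -0.55 to 0.17), by 0.05 ± 0.24 in the middle probe (interval -0.45 to 0.54) and by -0.16 ± 0.49 in the dim probe (interval -1.16 to 0.84). HC+RSV+EZE differed from HC+EZE by -0.09 ± 0.18 in the bright probe (interval -0.44 to 0.27), -0.04 ± 0.24 in the middle probe (interval -0.53 to 0.46) and -0.15 ± 0.49 in the dim probe (interval -1.16 to 0.85), with limma adjusted p = 0.99998 for each. The intervals of the dim probe leave room for changes of about 2-fold either way, those of the bright probe for less. The unadjusted p of these 6 tests were between 0.284 and 0.882. The statin's difference with ezetimibe minus that without was 0.10 ± 0.25, -0.08 ± 0.34 and 0.01 ± 0.70 in the bright, middle and dim probe, with limma adjusted p = 0.9999 in each.

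No probe of any gene passed limma's test in these comparisons, 0 of 12844, or 0%, for HC+RSV against HC, for HC+RSV+EZE against HC+EZE and for the interaction. At an unadjusted limma p under 0.05 the counts were 313, 232 and 229 probes in that order, or 2.44%, 1.81% and 1.78% of kept probes. With chip as a block the adjusted counts were again 0. The position shared by part of these groups allowed a partial look at the same place on the chip. At position B the 4 HC+RSV arrays exceeded the 2 HC arrays by 0.21 in the bright, 0.58 in the middle and 1.37 in the dim probe. At position G the 2 HC+RSV+EZE arrays exceeded the 4 HC+EZE arrays by 0.07, 0.37 and 0.16. These arrays lie on different chips. An exact two-sided permutation test gave p between 0.20 and 0.93 over the 6 values, or 0.70 to 0.93 adjusted over them, and with 15 arrangements it could not go below 0.067.

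Among the HC+RSV livers, 2 stood apart from the other 6 in the bright and the dim probe. Replicates 6 and 8 had bright probe levels of 9.63 and 9.56, against 10.55 to 11.23 in the other 6 HC+RSV livers. Their dim probe levels were 5.69 and 5.32, against 7.56 to 8.83. Both lay within the range of the ezetimibe groups for these probes, and below the lowest HC liver for the bright probe. In the middle probe replicate 8 was again low, at 8.39, while replicate 6 was at 9.26, between other livers of its group. Both arrays sat at position C, on chips 5 and 6. On the 2 other chips with an array at position C, 3 and 4, the bright probe was at 10.68 and 11.23. In the dim probe a liver on the diet alone was as low, HC replicate 8 on chip 5, at 5.52, between the 2 HC+RSV livers. Chip 5 had the lowest dim probe mean without ezetimibe of the 6 chips, 5.99. With 1 liver left out at a time, the HC+RSV difference from HC ran between -0.30 and -0.06 in the bright probe and between -0.47 and 0.16 in the dim probe. The dim probe difference was above 0 in 3 of these runs, at 0.16 without HC+RSV replicate 8, 0.11 without HC+RSV replicate 6 and 0.0015 without HC replicate 5.

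Much of the spread within groups went with the chip. Chip accounted for 45.0% of the within-group variance of the bright probe, 31.9% of the middle and 70.7% of the dim probe, against a median of 30.0% over all kept probes. The residual SD was 0.36 for the bright, 0.51 for the middle and 1.08 for the dim probe, and the last was larger than that of 99.6% of kept probes. On each of the 6 chips the ezetimibe arrays averaged lower than the arrays without it, in all 3 probes. The difference ran between -1.27 and -0.54 over chips in the bright probe, between -1.73 and -0.44 in the middle and between -2.26 and -0.64 in the dim probe. These means pool both ezetimibe groups and both groups without it. Taken singly, HC+RSV+EZE was below HC on all 6 chips in each probe. HC+EZE was below HC on 5 of 6 in the middle probe, with 0.0043 on chip 3. In the dim probe HC+EZE minus HC was only -0.066 on chip 5. The share of all kept probes with such counts is not given here.

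Within a chip the arrays with and without ezetimibe did not overlap on 5 of 6 chips in the bright probe, 4 of 6 in the middle and 5 of 6 in the dim probe. Each side of a chip held only 2 or 3 arrays, and the gene was chosen on this contrast. The share of all kept probes with such counts is not given here. On chip 6 the highest array with ezetimibe and the lowest without were close, at 9.53 and 9.56 in the bright and 5.316 and 5.320 in the dim probe. In the dim probe, chip means with ezetimibe ran between 4.84 and 6.66, and those without between 5.99 and 8.83. Without ezetimibe, chip means of this probe thus spanned more than its fitted ezetimibe difference, while the mean with ezetimibe was the lower one on each chip. Single arrays overlapped on chip 5, where the highest with ezetimibe was at 6.07 and the lowest without at 5.52. With chip as a block the HC+RSV+EZE difference from HC was -1.04 ± 0.15 in the bright, -1.10 ± 0.22 in the middle and -2.04 ± 0.30 in the dim probe.

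**Figure D3:**
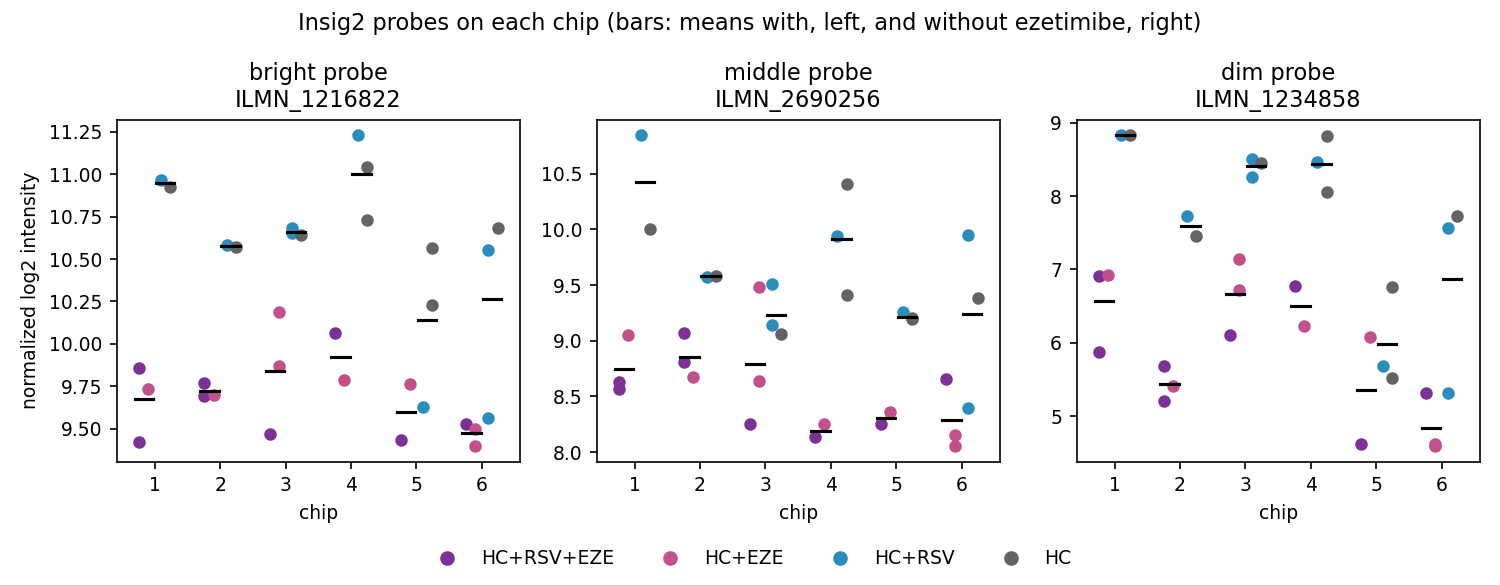
Normalized log2 intensity of each Insig2 probe (vertical axis) on each of the 6 chips (horizontal axis), with 1 point per liver coloured by group and short bars for the chip's mean with ezetimibe (left) and without (right). The left bar is the lower one on every chip in all 3 panels, and both bars of the dim probe lie lower on chips 2, 5 and 6 than on chips 1, 3 and 4.

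Position on the chip could not be separated from ezetimibe. Inside the groups the mean levels of the Insig2 probes differed between positions as well, which was not tested, and these means come in part from different chips. In each of the 4 groups the later position had the lower mean in all 3 probes. For the bright probe, H minus G in HC+RSV+EZE was -0.16, G minus F in HC+EZE was -0.08, C minus B in HC+RSV was -0.41 and B minus A in HC was -0.26. In the dim probe these differences were -0.33, -0.13, -1.23 and -1.22, and in the middle probe they were between -0.60 and -0.23. Of all kept probes, 15.9% had the later position lower in all 4 groups and 12.7% had it higher in all 4. Each group had arrays at both of its positions on 2 chips. Over these 8 same-chip pairs the later position was lower in 6 in the bright, 5 in the middle and 7 in the dim probe, with median differences of -0.31, -0.035 and -0.60. The share of all kept probes with such pair counts is not given here, and the 3 probes were read on the same arrays.

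A fit with position as a number turned the ezetimibe differences round, with wide errors. In it HC+RSV+EZE minus HC was 0.47 ± 0.85 in the bright, 1.75 ± 1.13 in the middle and 2.78 ± 2.37 in the dim probe, and HC+EZE minus HC was 0.27 ± 0.70, 1.26 ± 0.92 and 2.03 ± 1.93. That fit extends a slope seen over neighbouring positions to arrays several positions apart.

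**Figure D4:**
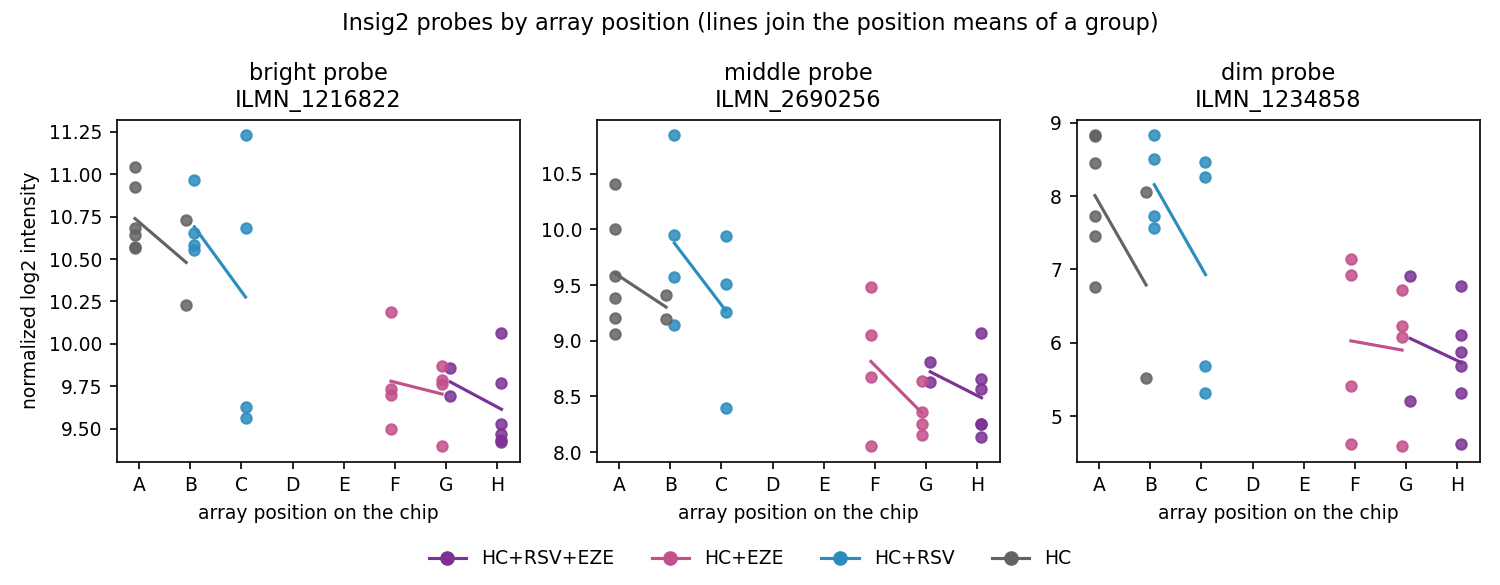
Normalized log2 intensity of each Insig2 probe (vertical axis) by the array's position on its chip, A to H (horizontal axis), with 1 point per liver coloured by group and lines joining the 2 position means of a group. Arrays with ezetimibe occupy F to H and arrays without it A to C, and each line slopes down.

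The bright and dim probes, which the annotation gives to one transcript, varied together among livers of the same diet. After subtracting group means, their levels over 32 livers had Pearson's r = 0.86 and Spearman's rho = 0.85, each with p = 1e-05 in 100000 permutations within groups, the smallest they can give, and 3e-05 adjusted over 3 pairs. Without the 2 livers farthest from the median, HC+RSV replicates 8 and 6, r was 0.80. The bright and middle probes had r = 0.67 and rho = 0.58 (permutation adjusted p = 0.0007 and 0.0015), and r = 0.60 without the same 2 livers. The middle and dim probes had r = 0.59 and rho = 0.49 (permutation adjusted p = 0.0014 and 0.0081), and r = 0.46 without HC+RSV replicates 3 and 8. With chip means removed as well, r was 0.83 for bright and dim, 0.65 for bright and middle and 0.55 for middle and dim. The values of a pair share their array's normalization.

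By group, bright and dim had r = 0.66 in HC+RSV+EZE, 0.88 in HC+EZE, 0.96 in HC+RSV and 0.92 in HC. The pairs with the middle probe had r = 0.04 and -0.19 in HC+RSV+EZE, against 0.59 to 0.81 in the other groups. Each of these rests on 8 livers, and the difference between groups was not tested.

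**Figure D5:**
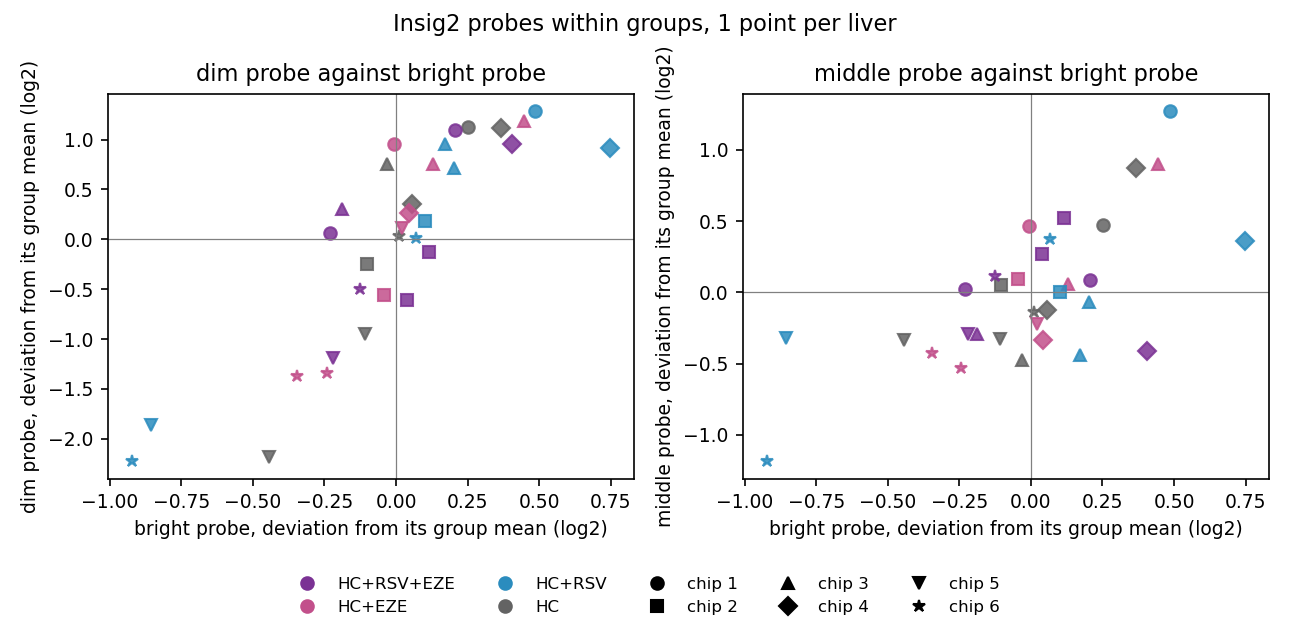
Deviation of the dim probe (left) and the middle probe (right) from its group mean (vertical axis, log2) against that of the bright probe (horizontal axis, log2), with 1 point per liver, coloured by group and shaped by chip. The dim probe follows the bright one over all 32 livers (r = 0.86), the middle probe less closely (r = 0.67), and the 2 lowest points in the bright probe are HC+RSV livers.

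How far the sizes differed between probes was read from the difference between 2 probes within each array. In the comparisons that differ in ezetimibe these values come from the contrast the gene was chosen on, so they are a description without a test. The dim probe differed from the bright probe by an extra -0.81 log2 units in HC+EZE against HC, -0.87 in HC+RSV+EZE against HC and -0.90 in HC+RSV+EZE against HC+RSV. All 8 HC+RSV+EZE arrays had the dim probe further below the bright one than the HC median. These sizes moved with the treatment of low signals. Without background correction the extra differences were -1.30, -1.32 and -1.30, whereas with an offset of 50 the HC+EZE difference from HC was -1.31 in the dim and -0.90 in the bright probe. The middle probe differed from the bright one by an extra -0.02, 0.04 and -0.20 in the same 3 comparisons. In the comparisons that differ in rosuvastatin, the extra differences of the 3 pairs of probes lay between -0.20 and 0.24, with exact two-sided permutation adjusted p between 0.568 and 0.938.

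The genes that act with Insig2 in sterol sensing did not pass the test. Of 20 listed, 15 were measured, and 0 were higher and 0 lower in any comparison by limma. Of all kept probes, 0.0311% were higher and 0.0156% lower in HC+EZE against HC, 0.0467% and 0.0156% in HC+RSV+EZE against HC, and 0.0545% and 0.0156% in HC+RSV+EZE against HC+RSV. The list's median difference in HC+RSV+EZE against HC was 0.03, beside -0.01 over all kept probes. Insig1, the other member of the pair, had levels between 6.43 and 9.24 in HC+RSV+EZE, 7.32 and 8.93 in HC+EZE, 7.14 and 9.27 in HC+RSV, and 6.78 and 8.41 in HC, so its groups overlapped throughout. It differed by -0.04 ± 0.34 in HC+RSV+EZE against HC and by 0.26 ± 0.34 in HC+EZE against HC. Within groups Insig1 had r = 0.32 with the bright Insig2 probe over 32 livers, higher than in 90.2% of 8852 genes, given as a description.

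Scap, the escort that Insig proteins bind, differed by -0.25 in HC+RSV+EZE against HC and -0.20 in HC+EZE against HC. Srebf2, the SREBP of cholesterol synthesis, differed by 0.22 and 0.09, and Srebf1, that of fatty acid synthesis, by 0.07 and 0.36. Mbtps1, which makes the first cut of SREBP, differed by 0.18 and 0.13. None of these passed the test, and their differences from HC were smaller in size than those of any Insig2 probe. Among genes of sterol synthesis and uptake, on which SREBP acts, 15 of 21 were measured and 0 passed in either direction. In HC+RSV+EZE against HC, 13 of these 15 were above 0 with a median of 0.36, beside -0.012 over all kept probes. In HC+EZE against HC 12 of 15 were above 0 with a median of 0.18, beside -0.0028, and in HC+RSV against HC 14 of 15 with a median of 0.22, beside 0.0011.

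Of the clock genes, 15 of 19 were measured. Those that passed against HC were Ciart and Per1 in HC+RSV+EZE and Ciart in HC+EZE, all higher. Of all kept probes, 0.0467% and 0.0311% were higher in the same order. The list was written with earlier results of these data known, so its calls are no fresh test. Ciart, a repressor of the core clock activator, was higher by 1.76 ± 0.28 in HC+RSV+EZE against HC (limma adjusted p = 0.002) and by 1.67 ± 0.28 in HC+EZE against HC (limma adjusted p = 0.007). Per1, a period protein, was higher by 1.37 ± 0.21 in HC+RSV+EZE against HC (limma adjusted p = 0.002) and by 0.92 ± 0.21 in HC+EZE against HC, which did not pass (limma adjusted p = 0.138). Ciart lay above every HC liver in all 8 livers of each ezetimibe group, as did 0.0389% of kept probes for HC+EZE and 0.0623% for HC+RSV+EZE. Against HC+RSV the separation was incomplete. Ciart was at 6.84 and 6.94 in HC+RSV replicates 7 and 8, and at 5.54 or lower in the rest of that group. The lowest ezetimibe livers were at 6.66 with ezetimibe alone and 6.54 with both drugs. For Per1 the same HC+RSV livers, at 6.71 and 6.65, also exceeded the lowest ezetimibe livers, at 6.28 and 6.46 in that order of groups. Nr1d1, described as a repressor that sets the rhythm of Insig2, differed by 0.02 in HC+RSV+EZE against HC and its relative Nr1d2 by 0.18. Neither passed in that comparison. Arntl, the activator, differed by -0.68 and -0.80 in HC+RSV+EZE and HC+EZE against HC without passing. These groups, too, differ in array position, and with position as a covariate 0 of the list members passed. In the authors' values 0 list members passed in HC+EZE against HC and 1 in HC+RSV+EZE against HC.

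Of the genes on the 5 lists, the one with the highest r with the bright Insig2 probe over 32 livers, group means removed, was Nfil3, a clock-controlled repressor, singled out after its value was seen. It had r = 0.60 and rho = 0.60, above 99.9% of 8852 genes, and r = 0.43 without HC+RSV replicates 6 and 8. With the middle and dim probes Nfil3 had r = 0.65 and 0.41. Over the 15 measured clock genes, r with the bright probe ran from -0.35 for Ciart to 0.60 for Nfil3, with Nr1d1 at 0.21. With chip means removed as well, r ran from -0.60 for Dbp to 0.72 for Nfil3, with Ciart at -0.47 and Nr1d1 at -0.01. The clock genes thus did not share one sign within groups, and whether they form sets of opposite sign was not tested. These correlations are descriptions over livers that share chips and normalization.

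Of the genes of the insulin and fasting response 14 of 17 were measured, and of those for bile acid and nuclear receptors 11 of 13. In both lists 0 were higher and 0 lower in each comparison. Irs2, the insulin receptor substrate, differed by -0.15 in HC+RSV+EZE against HC and 0.26 in HC+EZE against HC, Igfbp1, an insulin-repressed secreted protein, by 0.35 and -0.14, and Nr1h4 by -0.15 and -0.06. None of these passed.

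Over 8852 genes and 32 livers, with group means removed, the patterns most like the bright Insig2 probe were those of Slc30a10 (r = 0.74), a manganese transporter, Cyp2f2 (0.69), a cytochrome P450 of periportal hepatocytes in mouse, Mreg (0.65), Nae1 (0.65) and Txndc15 (0.64). The most opposite were Sspn (-0.70), Ddb2 (-0.70), Htra1 (-0.70), Hnrnpc (-0.68) and Txndc12 (-0.67). The median gene had r = -0.02. With the dim probe Slc30a10 had r = 0.82 and with the middle probe 0.46. The set of closest genes turned on the chips, since with chip means removed 0 of the 5 highest and 1 of the 5 lowest stayed among the first 5, although Slc30a10 still had r = 0.60 and Ddb2 -0.67.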

How the data were processed

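Per the labels, total RNA of each liver was amplified to biotin-labelled RNA and put on 1 array. The authors deposited an intensity per probe and array, not normalized, with some values below 0, and next to each a detection score, a fraction between 0 and 1 that was subtracted from 1 to give a detection p. A separate table that the authors deposited holds log2 values for 15505 probes, and the submitters' processing notes name limma. Intensities were background corrected (nec with detection p, offset 16), quantile normalized and log2 transformed with limma 3.58.1 in R 4.3.3. Probes with detection p under 0.05 on at least 8 arrays were kept, 12844 of 25697. One model of the 4 groups was fitted to 32 arrays (28 residual degrees of freedom). Calls are at an adjusted p of 0.05, Benjamini-Hochberg over kept probes. Spots of a gene were not averaged, and a listed gene stands for its kept probe of highest mean.

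Exact permutation tests and correlations used SciPy 1.17.1 under Python 3.11.15. Replicates are separate mice. Depth does not apply to arrays, and the number of arrays limits the precision. In simulated data for HC+RSV+EZE against HC, over 12844 probes, the test recovered 39.4% of changes of 0.5, 90.3% of 1 and 100% of 2 log2 units, with 3 false calls. The simulated noise was independent between arrays and between probes, without chip or position, so these figures need not hold for the real arrays. The members and gene lists were chosen with earlier results of these data known. Genes were named by rule: every Insig2 probe, list members past the test, a fixed set of partner genes, and the 5 most and least alike. Nfil3 was named outside this rule. Some partner genes and the neighbours of Insig2 are not analysed here. Alternatives were background, offset, normalization, filter, chip, position, replicate number, array weights, variance, arrays left out and the authors' values.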

Additional observations from a re-analysis of the deposited data

How the results depend on the processing

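The ezetimibe differences of the 3 Insig2 probes stayed below 0 in every alternative run except those with array position as a covariate. With position alone, HC+EZE against HC, HC+RSV+EZE against HC and HC+RSV+EZE against HC+RSV were 0.27, 0.47 and 0.38 in the bright probe, 1.26, 1.75 and 1.18 in the middle and 2.03, 2.78 and 2.04 in the dim probe. HC+RSV+EZE against HC+EZE was 0.20, 0.49 and 0.75 in the 3 probes, and HC+RSV against HC 0.10 in the bright and 0.74 in the dim probe. With position and chip (chosen after seeing the data), the 3 ezetimibe differences were 0.68, 0.95 and 0.72 in the bright, 0.67, 0.91 and 0.44 in the middle and 1.77, 2.42 and 1.73 in the dim probe. There HC+RSV+EZE against HC+EZE was 0.27, 0.23 and 0.64, and HC+RSV against HC 0.23 in the bright and 0.69 in the dim probe.

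The other reversals were of values near 0 that passed no test, and their cause was not tested. The dim probe's interaction was -0.044 with chip as a block, with or without position, -0.019 with a random chip block, -0.054 with cyclic loess, -0.049 with array weights, -0.10 with equal medians, -0.014 with offset 50 and -0.081 in non-normalized intensities (added after seeing the data), where the bright probe's was -0.019. The middle probe's HC+RSV difference from HC was -0.019 with equal medians, -0.0011 in non-normalized intensities and -0.046 without the 4 arrays of lowest mean correlation. Its HC+RSV+EZE difference from HC+EZE was 0.056 with array weights and 0.092 without those 4 arrays, its interaction then 0.14, and the dim probe's HC+RSV+EZE difference from HC+EZE 0.017.

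Of the extra change of one probe over another, dim over bright in HC+RSV against HC was -0.019 in the authors' values, -0.018 without background correction, -0.11 with chip as a block, -0.053 with cyclic loess and -0.25 without the 4 arrays. Without them it was 0.041 in HC+RSV+EZE against HC+EZE, and middle over bright in HC+EZE against HC was 0.022. With chip as a block, middle over bright was -0.047 in HC+RSV+EZE against HC and -0.0044 against HC+EZE, and dim over bright, given without a test, was -1.005 in HC+RSV+EZE against HC and -0.95 against HC+RSV.

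Over the 5 lists, 1 member passed in HC+EZE against HC, 2 in HC+RSV+EZE against HC and 2 in HC+RSV+EZE against HC+RSV. These counts were 0, 1 and 0 in the authors' values, 0 in the first and 1 in the second without background correction, and 0 in each with position, with position and chip, and in non-normalized intensities. With a fit of only the groups compared they were 4 in the second and 0 in the third.

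Without 1 array at a time, signs changed where values lay near 0. HC+RSV against HC ran between -0.47 and 0.16 in the dim and -0.14 and 0.21 in the middle probe. HC+RSV+EZE against HC+EZE ran between -0.35 and 0.018 in the dim and -0.11 and 0.092 in the middle probe. The interaction ran between -0.028 and 0.21 in the bright, -0.25 and 0.10 in the middle and -0.31 and 0.32 in the dim probe. Dim over bright ran between -0.22 and 0.22 in HC+RSV against HC and -0.22 and 0.074 in HC+RSV+EZE against HC+EZE, and dim over middle between -0.47 and 0.015 and between -0.31 and 0.012. Middle over bright ran between -0.084 and 0.056 in HC+EZE against HC, -0.028 and 0.15 in HC+RSV+EZE against HC and -0.0063 and 0.17 in HC+RSV+EZE against HC+EZE.

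Replicate numbers are shared by the groups, but only 7 of 32 arrays correlated best with an array of their own number. With the replicate block the bright probe's HC+EZE difference from HC was -0.93 ± 0.15 and no Insig2 call changed. Signal over background limits the dim probe, which was not detected on 3 of 32 arrays.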
